A study of Mus musculus with 20 samples.

Results

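Peaks of 20 ATAC-seq libraries from mouse cells were merged wherever they overlapped by at least 1 bp, and 14217 of the 335858 merged regions (4.23%) held a peak in every library. These 14217 shared regions, or members, were therefore accessible in fibroblasts, in embryonic stem cells and at each sampled day of 2 reprogramming time courses. In ATAC-seq, Tn5 transposase cuts and tags DNA that is not wrapped in nucleosomes, so that a peak marks accessible chromatin. The presence of peaks chose the regions, so their number and their presence across libraries are descriptions. Sequence, place and gene content were not used by the choice.

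Chromatin that is accessible in most cell types is known to lie mainly at promoters with CpG islands, many of which belong to genes that every cell needs for translation, protein turnover and energy supply. Such promoters are bound by widely expressed factors such as SP1, NRF1, NF-Y, YY1 and the GABPA branch of the ETS family. Away from promoters, the insulator protein CTCF occupies many of its sites in most tissues. Cell type-specific accessibility lies more often at distal enhancers, where AP-1 and TEAD factors act in fibroblasts and OCT4 with SOX2 acts in pluripotent cells.

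The libraries comprised 1 of mouse embryonic fibroblasts (MEFs), 3 of embryonic stem cells (ESCs) and 16 of MEFs that received Oct4 together with either Nanog or NanogN70. Each of the 2 paths had 1 library at each of 8 time points, namely daily or every other day up to day 8 (0, 1, 3, 5, 7 and 8) and then on days 10 and 12. In NanogN70, an N-terminal piece of SS18 that binds BRG1 is fused in front of NANOG. SS18 and BRG1 are both components of the BAF complex, which remodels nucleosomes. The transgenes were delivered by retrovirus into MEFs with an Oct4-GFP reporter, whole populations were sampled, and Oct4 was shared by both paths. ESC libraries were grouped by their titles, since their source field names MEFs. The labels do not say whether the 3 ESC libraries came from separate cultures, so p-values measure the spread between these libraries, which may be technical.

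Libraries held 44126 to 125467 peaks, with the most in MEFs and the fewest in NanogN70 at day 10. No source used here states the reads of each library, so depth is unknown, and the number of libraries limits the precision. Of 12 T lymphocyte and leukocyte genes, 11 had a peak near their start in NanogN70 at day 3 and 0 to 3 in any other library. The differences of the list means and the calls of single members between the paths are therefore also given without day 3. Splits, member tallies and named ranks keep that day. Of 12 fibroblast genes, all 12 had such a peak in MEFs and 9 to 10 in ESCs, and of 12 pluripotency genes 11 had one in each ESC library and 7 in MEFs. Nanog and Pou5f1, the genes the vectors carried, had no shared region within 2 kb of their starts.

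Short stretches of shared regions show the sequence features that recur in them. For the 3 motifs most enriched among promoter and among distal members relative to all regions, the region chosen was the one that held the motif and stayed highest in its weakest library. The stretches are from the GRCm38 (mm10) RefSeq genome, plus strand, and capitals mark the motif.
NRF1, promoter of Hspa8, chr9:40800885-40800983: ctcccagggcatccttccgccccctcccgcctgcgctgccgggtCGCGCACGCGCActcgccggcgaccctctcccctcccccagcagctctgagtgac
SP, promoter of Rps6ka5, chr12:100725186-100725286: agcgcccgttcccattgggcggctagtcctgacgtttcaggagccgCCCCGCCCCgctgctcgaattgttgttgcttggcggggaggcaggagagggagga
ZBTB33, promoter of Clec11a, chr7:44304890-44304989: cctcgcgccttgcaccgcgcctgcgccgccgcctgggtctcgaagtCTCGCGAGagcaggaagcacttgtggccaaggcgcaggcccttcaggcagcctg
CTCF, intron of Atn1, chr6:124745520-124745619: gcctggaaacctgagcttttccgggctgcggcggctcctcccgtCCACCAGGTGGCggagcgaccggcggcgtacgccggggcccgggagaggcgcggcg
NRF1, untranslated start of an alternative Stag1 transcript, chr9:100643438-100643467: cgccgctgcTGCGCGTGCGCGccccccgga
ZBTB33, untranslated part of an exon of Smdt1, chr15:82345991-82346020: gtgtcacgagtCTCGCGAGttttggagaaa
The distal stretches at Stag1 and Smdt1 were kept to 30 bases, and the centre of the Stag1 region lies in an intron. Hspa8 encodes a constitutively expressed HSP70 chaperone, Stag1 a cohesin subunit and Smdt1 a regulator of the mitochondrial calcium uniporter. The pileup at the summit, which is the number of overlapping tags there and is not scaled to depth, was 53 to 223 over the 20 libraries at the Hspa8 region. It was 60 to 205 at Rps6ka5 and 62 to 149 at Clec11a. The distal regions at Atn1, Stag1 and Smdt1 had pileups of 24 to 125, 40 to 162 and 43 to 140.

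The number of regions fell with the number of libraries that shared them and then rose at the end of the scale. Regions open in only 1 library numbered 139128 (41.4%), 2318 regions were open in 15 libraries, 2364 in 19 and 14217 in all 20. Regions open everywhere thus formed a class larger than any from 5 to 19 libraries. Of the 2364 regions open in 19 libraries, 543 (22.97%) lacked a peak in Nanog at day 0, 366 (15.5%) in NanogN70 at day 1 and 248 (10.5%) in Nanog at day 1. Leaving out any library in turn gave 14219 to 14760 shared regions. At the border of the rule, the lowest peak score over libraries had a median of 187.71 inside (open in 20) and 59.75 just outside (open in 19), on the -10 log10 p scale of the peak caller on which the deposited lists start at 50. The lowest summit pileup over libraries had a median of 12 inside and 6 outside.

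Promoter place, width and CpG content rose with the number of libraries that shared a region. Regions centred within 2 kb of a GENCODE gene start, called promoter regions, made up 8.65% of regions open in 1 library, 25.3% of those open in 16 to 18, 33.8% of those open in 19 and 71.9% of those open in all 20. The median width rose from 161 bp for 1 library through 661.5 bp for 19 to 1120 bp for 20, and merging over more libraries by itself widens a region. The ratio of observed to expected CpG within 100 bases of the centre rose from 0.190 to 0.400 and 0.763 over the same 3 classes. The step from 19 to 20 libraries was the largest of this series for the promoter share.

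**Figure D1:**
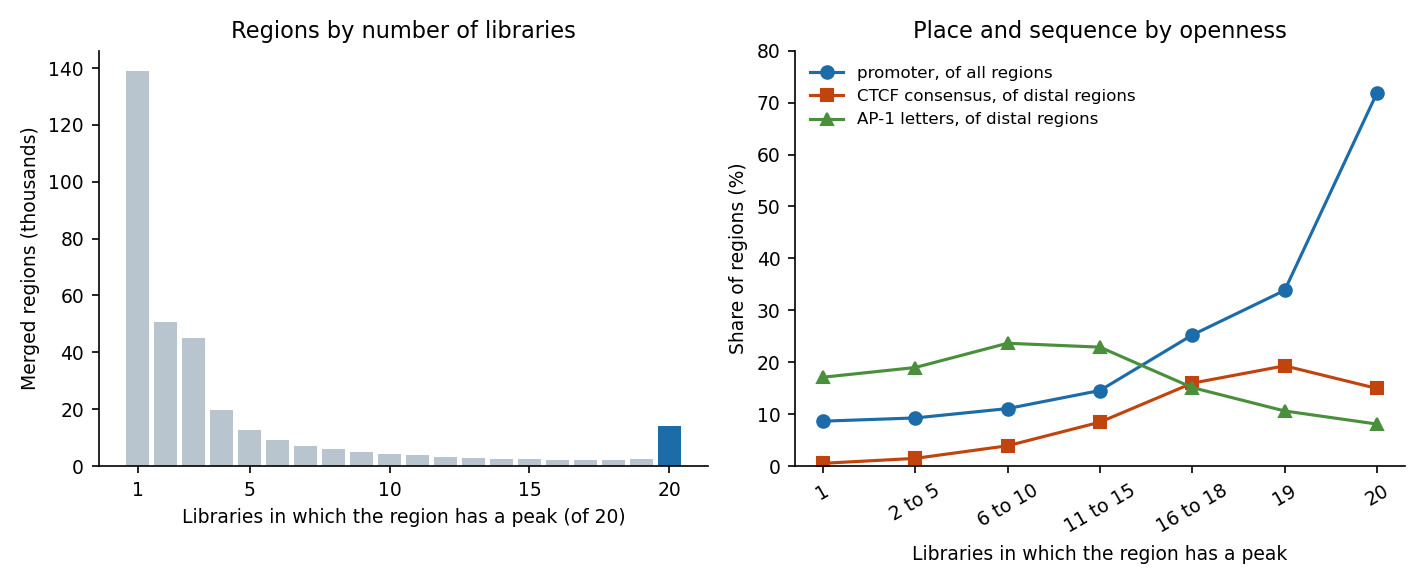
Left, number of merged regions (linear axis from 0) against the number of the 20 libraries in which a region held a peak. Right, percent of regions at promoters, and percent of distal regions with the CTCF consensus or AP-1 letters, by the same number in classes; at 20 libraries the promoter share is 71.9%, CTCF 14.9% and AP-1 8.09%.

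Of the 14213 shared regions on chromosomes 1 to 19, X and Y, 10219 were at promoters (71.9%, 95% exact binomial interval 71.2 to 72.6), 621 in exons (4.37%), 1842 in introns (13.0%) and 1531 between genes (10.8%). Over all merged regions the shares were 12.5% promoter, 4.99% exon, 46.3% intron and 36.1% intergenic. The interval covers counting error only. Promoter members were mostly centred close to the start, at a median of 76 bp from it, with 88.5% within 500 bp. Over all promoter regions, members included, the median distance was 511 bp and 49.6% lay within 500 bp.

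The 3994 members away from gene starts, called distal members, were of 2 kinds. In 1173 of them (29.4%) the start of an annotated alternative transcript lay within 2 kb, compared with 6.71% of all distal regions. These had a median CpG ratio of 0.661, and 6.65% held the CTCF consensus. The other 2821 had a median CpG ratio of 0.368, and 18.4% held the CTCF consensus. Distal members were narrower than promoter members, with median widths of 802 and 1221 bp. Repeat-masked bases made up 5.19% of the members' windows on average and 16.1% of those of all regions.

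Promoters that serve genes on both strands were common among the members. A protein-coding start on each strand lay within 1 kb of the centre of 1052 of the 10219 promoter members (10.3%) and of 248 of the 31837 other promoter regions (0.779%). Of the 1300 promoter regions with such paired starts, 80.9% were members, compared with 24.3% of all 42056 promoter regions. An example is the region at the mitochondrial ribosomal protein gene Mrpl18 and the chaperonin gene Tcp1 (chr17:12915486-12917063), which start beside each other.

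Shared regions were densest on gene-rich chromosomes. Chromosome 11 held 1174 of them (9.62 per Mb), chromosome 19 had 7.70 and chromosome 7 had 7.32 per Mb, while chromosome X held 360 (2.10 per Mb) and chromosome Y 1. Chromosome X had few merged regions of any kind (7402), and 4.86% of these were members, compared with 4.23% of all regions. Counted over genes, 30.4% of the 948 protein-coding genes on chromosome X had a member within 2 kb of their start, below the 40.2% to 60.3% of the autosomes.

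Genes for the basic machinery of the cell had shared regions at almost every start. Over all 21938 protein-coding genes, 10670 (48.6%, exact interval 48.0 to 49.3) had a member centred within 2 kb of the start, and 16823 (76.7%) had any merged region there. The classes named here were grouped by symbol, and each share is a description to be read against the 48.6% of all genes. Starts that lie close together can share a region, so genes are not independent.

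In translation, members lay at 78 of 84 cytosolic ribosomal protein genes (92.9%), 73 of 78 mitochondrial ribosomal protein genes (93.6%), 48 of 55 initiation factor genes (87.3%) and 36 of 37 tRNA synthetase genes (97.3%, all but Tars2). These shares were all well above the background of 48.6%. In transcription and splicing, members lay at 27 of 28 RNA polymerase subunit genes (96.4%, all but Polr2k), 28 of 30 mediator genes (93.3%) and 31 of 34 genes of splicing proteins (91.2%). In protein folding and turnover, members lay at all 7 chaperonin genes, 42 of 49 proteasome genes (85.7%) and 13 of 14 genes of the anaphase-promoting complex (92.9%), the ubiquitin ligase that drives exit from mitosis. Complex I of the respiratory chain had members at 35 of 36 genes (97.2%).

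Chromatin genes were also covered. Members lay at 23 of 27 genes of BAF subunits (85.2%), and Actl6a, Smarcd3, Bcl11a and Phf10 lacked one. The start of Smarca4, which encodes the BAF ATPase BRG1, had a member with a median rank of 90.6 (chr9:21615191-21616776). Rank here is the percentile of the top pileup of a region among the 14217 members of the same library, from 0 for the weakest to 100 for the strongest, so that depth does not set its scale. Ss18 itself had a member at its promoter, whose rank did not pass the test between the paths described further on (limma, adjusted p = 0.432). Members lay at 54 of 67 replication-dependent histone genes (80.6%), which share 34 members because the genes are clustered, and at 266 of 365 genes of numbered zinc finger proteins (72.9%). Histone, ribosomal protein and zinc finger genes have close copies, and reads without a unique place were removed by the authors, so members there are less certain.

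Genes of the receptor, keratin, defensin and P450 families were rarely covered. A merged region of any kind lay at 102 of 1092 olfactory and 19 of 326 vomeronasal receptor genes. One lay at 24 of 49 keratin, 12 of 64 defensin and 9 of 55 P450 genes, against 76.7% of all genes. The removal of reads without a unique place applies here too, and its part was not tested. Members lay at 3 of 55 genes of cytochrome P450 families 2 and 3 (Cyp2r1, Cyp2u1 and Cyp2j6). For comparison, 13 of 39 Hox genes (33.3%) had a member, with a median rank of 25.2. No member lay at any of 49 keratin or 64 defensin genes. Of 1092 olfactory receptor genes 1 had a member (Olfr156, median rank 3.78). Of 326 vomeronasal receptor genes 1 had a member (Vmn1r4, median rank 91.1), in a region that also serves the start of Nt5c3, a nucleotidase gene.

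Among cell type markers, members lay at 2 of 12 pluripotency genes (Sox2 and Klf4), 4 of 12 fibroblast genes (Col1a1, Col1a2, Fbn1 and Twist1), 0 of 12 lymphocyte and leukocyte genes and 0 of 6 epidermal genes. Neuronal genes with a member were Snap25, Slc17a7 and Syt1 of 6, and Apoa1 was the only hepatocyte gene of 6. Snap25, Slc17a7 and Syt1 encode proteins of synaptic transmission, and their members were of middle rank (medians 28.2, 60.3 and 49.3).

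Motifs were counted within 100 bases of each centre on both strands, as exact letters, and a match is not a binding site. The letters were SP GGGGCGGGG, ETS CCGGAAG, NF-Y AGCCAAT, YY1 AAGATGGCG, CRE TGACGTCA, USF CACGTGAC, ZBTB33 CTCGCGAG and ZNF143 ACTACAATT, with NRF1 and CTCF searched by their consensus. SP1 and its relatives bind GC boxes, NRF1 controls nuclear genes for mitochondria, and ZBTB33 (Kaiso) reads the CTCGCGAG palindrome at promoters. The letters of SP were found in 20.2% of promoter members, 7.91% of distal members and 1.90% of all regions. Those of ETS were in 15.96%, 5.08% and 1.90%, and those of NF-Y in 10.9%, 6.11% and 3.51%. NRF1 (2.60%, 0.83% and 0.16%) and ZBTB33 (1.81%, 0.38% and 0.08%) were rarer, but in promoter members they stood furthest above all regions. In distal members the CTCF consensus did, at 14.9% against 2.05% of all regions. At least 1 of 8 promoter motifs (SP, ETS, NF-Y, NRF1, YY1, CRE, USF and ZBTB33) was present in 49.7% of promoter members and 19.96% of all promoter regions, and in 21.9% of distal members and 6.81% of all distal regions.

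Counted the other way, a promoter region with certain letters was mostly a member. Of all promoter regions 24.3% were members, compared with 83.6% of those with NRF1 (266 of 318), 81.1% with ZBTB33 (185 of 228), 77.9% with YY1 and 68.4% with ETS (1631 of 2384). Promoter regions with several other letters were members less often than that background. The AP-1 letters TGANTCA were in 4403 promoter regions, of which 263 (5.97%) were members, and the shares were 9.03% for SOX (CATTGTT), 9.26% for TEAD (GGAATGT) and 13.7% for OCT (ATGCAAAT). KLF (GGGTGTGG), the CTCF consensus and RFX (GTTGCCATG) stood near the background, at 22.3%, 22.4% and 27.0%. GC content differs between members and other promoter regions (medians of 65.7% in members and 53.7% in all), and its part in these shares was not tested.

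Among distal regions, the CTCF consensus was more frequent in members than in all regions, though less so than in regions open in 19 libraries. It was present in 14.9% of distal members (597 of 3994), 2.10% of all distal regions and 1.57% of promoter members. By openness its share in distal regions rose from 0.526% in 1 library to 15.97% in 16 to 18 and 19.3% in 19, and was 14.9% in all 20. Of 6159 distal regions with the consensus 9.69% were members, against 1.36% of all distal regions. The share was 26.8% with ZBTB33 (15 of 56), 16.1% with NRF1 (33 of 205) and 9.74% with SP (316 of 3243), and of 54414 distal regions with the AP-1 letters 0.594% were. AP-1 letters were most frequent among distal regions open in 6 to 10 libraries (23.7%) and least frequent in those open in all 20 (8.09%).

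**Figure D2:**
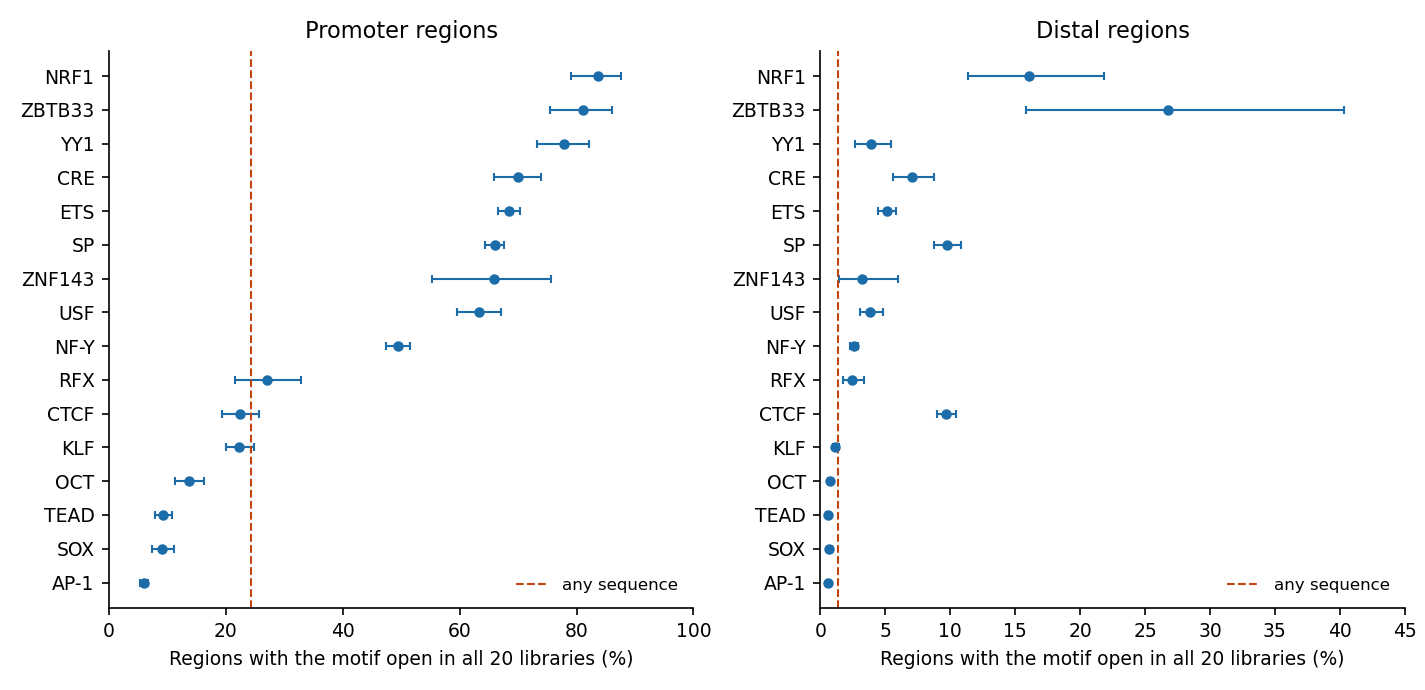
Percent of promoter regions (left) and distal regions (right) holding each of 16 motifs that were open in all 20 libraries, with 95% exact binomial intervals as bars and the share over any sequence (24.3% and 1.36%) as a dashed line. At promoters NRF1 (83.6%) and ZBTB33 (81.1%) stand highest and AP-1 (5.97%) lowest.

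The members stood at the strong end of each library. A region had to pass the peak threshold in all 20 libraries, so high pileups and wide peaks follow in part from the rule and are given as a description. Members made up 12.4% to 37.4% of the regions open in a library and 915 to 1000 of its 1000 regions with the highest pileup. The lowest of these counts was in MEFs, and ESCs had 940 to 947. The median pileup of members was 16 to 60 over the libraries, compared with 6 to 10 for the other open regions. The median member stood at the 80.4th to 91.0th percentile of its library, and the weakest 5% of members stood below the 35.7th to 66.5th. Their top peaks were also wider, with a median of 354 to 839 bp in members and 180 to 241 bp in other regions.

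Promoter members ranked above distal members in every library, with medians of 55.9 to 60.0 against 23.5 to 33.3. Distal members with the CTCF consensus were weaker still, with a median rank of 15.9 to 28.5 compared with 24.6 to 34.1 for distal members without it. Distal CTCF members were also narrow (median width 582 bp, against 846 bp without the consensus).

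**Figure D3:**
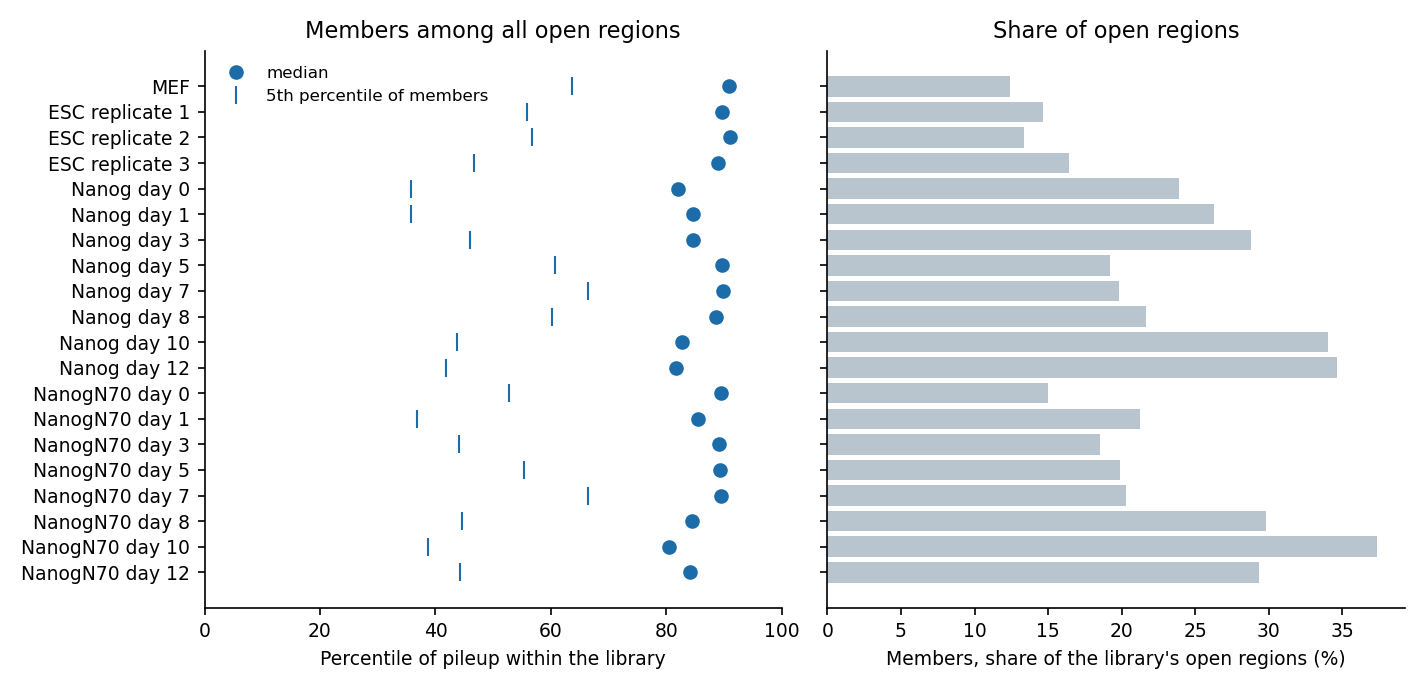
Left, median (points) and 5th percentile (ticks) of the members within the pileup percentiles, from 0 to 100, of all regions open in each of the 20 libraries; right, members as percent of those regions (bars). The medians lie at 80.4 to 91.0 while members are 12.4% to 37.4% of the regions.

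Ranks were shared within a cell type and less so between types. Spearman correlations of rank over the 14217 members, given as descriptions over regions that share libraries and base composition, were 0.927 to 0.935 between ESC libraries and 0.666 to 0.671 between MEFs and ESCs. Along the Nanog path the correlation with MEFs went from 0.845 at day 0 to 0.693 at day 12, with a low of 0.641 at day 5. Along the NanogN70 path it went from 0.832 to 0.650, with a low of 0.640 at day 3, the library with peaks at lymphocyte genes. The mean correlation with ESCs was 0.558 at day 5 of the Nanog path, 0.636 to 0.689 for its other libraries and 0.638 to 0.729 for NanogN70 libraries. Nanog at day 5 was thus the lowest of its path with both references.

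Being open everywhere did not mean having the same rank in each library. The range of a member's rank over the 20 libraries had a median of 45.8 points, with 18.2 and 74.4 as its 5th and 95th percentiles. Only 225 members (1.58%) stayed within 10 points, while 367 (2.58%) moved by 80 or more. The median range was 44.7 points for promoter and 49.0 for distal members. The median pileup of members was as low as 16 in a library, and the part of counting noise in these ranges was not tested.

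The members that were strong in every library were taken as the 8 promoter and 8 distal regions whose weakest library percentile was highest, which was 98.2 or more. At this end of the scale the range of rank is small by construction. The promoter regions included those of Limk1, a kinase that regulates actin (pileup 66 to 196), Rap2a, a small GTPase (65 to 189), and Tomm40, the channel of the mitochondrial import complex (67 to 213). Gsk3b, a kinase of the Wnt pathway (53 to 205), Khsrp, an RNA-binding protein (80 to 213), and Rps6ka5, a histone H3 kinase (60 to 205), were the others with a protein-coding gene. The distal regions lay in introns of Tbc1d14, Ptprs, Hdac4, Kat6b, Ppp2r5a and Aktip, 6297 bp from the start of Trappc9 and 52176 bp from that of Wnt7b. NF-Y letters were present in 5 of the 16, compared with 10.9% of all promoter and 6.11% of all distal members.

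The region at the start of Gm10222 (chr1:24612635-24612797) had a median pileup of 726 and a highest of 1408, and all of its 163 bases matched the mouse mitochondrial genome at 99.4% identity. Its neighbour Gm28438 (chr1:24613038-24613166) matched over 129 bases at 99.2%. Copies of mitochondrial DNA are known in the nuclear genome. Mitochondrial reads were removed by the authors, and what share of the tags at these copies came from mitochondria was not tested. In a search of all 14213 placed members the only other match, at BC031181, covered 114 of 1142 bases at 82.5% identity. The region at Gm26917 (chr17:39842987-39848840) had pileups of 191 to 1447 and was 5854 bp wide. Whether all its tags came from this place was not tested. The regions at Gm10222 and Gm26917 led the promoter members by their weakest library and were kept in all counts.

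At the other end were the 6 members with the largest range of rank. All of them were distal and chosen for their range, so their values are a description. The letters of AP-1 were present in 3 of them and the CTCF consensus in 1, compared with 8.09% and 14.9% of all distal members. These 4 stretches were added after their values were seen.
AP-1, near Gm13296, chr2:11429681-11429781: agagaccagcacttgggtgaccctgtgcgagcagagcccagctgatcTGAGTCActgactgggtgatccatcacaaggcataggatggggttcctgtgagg
AP-1, intron of Ahnak, chr19:8997683-8997783: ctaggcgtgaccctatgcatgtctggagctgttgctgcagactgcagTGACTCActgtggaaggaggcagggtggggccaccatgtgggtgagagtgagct
AP-1, near Snap47, chr11:59458999-59459099: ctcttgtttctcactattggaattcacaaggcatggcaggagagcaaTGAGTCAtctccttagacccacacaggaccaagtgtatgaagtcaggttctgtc
CTCF, near Mir1904, chr13:110018468-110018567: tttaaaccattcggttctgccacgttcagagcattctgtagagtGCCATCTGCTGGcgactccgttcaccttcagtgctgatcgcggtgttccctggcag
The region near Gm13296 (chr2:11429400-11430065) had a rank of 99.6 in MEFs and of 0.218, 2.61 and 0.886 in the 3 ESC libraries. In the Nanog path its rank was 21.5 to 97.2 (median 70.9) and in the NanogN70 path 5.13 to 94.6 (median 31.3). MEFs and ESCs thus stood at opposite ends, with the time courses between and overlapping. The region in the Ahnak intron (chr19:8997198-8998214) had pileups of 136 in MEFs and 10, 9 and 10 in ESCs. Its rank was 99.2 in MEFs, 2.70, 1.11 and 4.39 in ESCs, 0.51 to 83.6 in the Nanog path and 1.12 to 81.5 in the NanogN70 path. Ahnak encodes a very large scaffold protein of the cell cortex.

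The region near Snap47 (chr11:59458685-59459419) ranked 91.5 in MEFs, 10.3, 5.94 and 0.886 in ESCs, 15.9 to 98.3 in the Nanog path and 0.102 to 92.2 in the NanogN70 path. Accessible in the opposite direction were the regions in a Mapt intron and near Mir1904. The Mapt region (chr11:104288603-104290113), in the gene for the microtubule protein tau, ranked 13.0 in MEFs and 97.4, 95.8 and 99.3 in ESCs. It stayed at 2.51 to 17.7 in the Nanog path and at 0.591 to 26.7 in the NanogN70 path, below every ESC library on every day. The Mir1904 region (chr13:110018367-110020425) ranked 14.95 in MEFs, 97.0, 98.2 and 96.7 in ESCs, and at most 48.5 and 38.8 in the paths. The sixth region, near Mir6356, ranked 56.0 in MEFs, 16.6, 17.8 and 33.5 in ESCs, 1.35 to 99.8 (median 67.7) in the Nanog path and 29.8 to 99.6 (median 53.7) in the NanogN70 path. Both its highest and its lowest library were in the Nanog path, on days 10 and 5.

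To ask which shared regions differ in strength between the start and the pluripotent reference, ranks in the 3 ESC libraries were compared with those in MEFs (limma across all members, Benjamini-Hochberg adjustment). With 1 MEF library the spread comes from the ESC libraries alone, and the MEF library is assumed to vary like them. Of the 14217 members, 1620 (11.4%) were higher and 1647 (11.6%) lower in ESCs at an adjusted p under 0.05, and 5305 had an unadjusted p under 0.05. Promoter members were called in 10.8% as higher and 9.67% as lower, and distal members in 13.0% and 16.4%. Members called with a difference of at least 20 points formed an ESC-higher list of 1277 (8.98%) and a MEF-higher list of 1428 (10%). Of these lists 63.7% and 60.1% were at promoters, against 71.9% of all members.

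The promoter members of protein-coding genes with the largest rise in ESCs were those of Ak7, C2cd4c, Atp8b3, Fbxo27, Itgbl1, Strbp, Tc2n and Aldoc, whose ranks were 76.7 to 94.4 points higher. The Ak7 promoter (chr12:105705572-105706250), of an adenylate kinase of motile cilia, ranked 2.08 in MEFs and 98.4, 92.3 and 98.7 in ESCs. This was a difference of 94.4 points (SE 6.41), and the region was named for the size of that difference. In the paths it ranked 1.09 to 22.8 with Nanog and 5.79 to 49.3 with NanogN70, below all ESC libraries. The Strbp promoter (chr2:37702111-37704049), of an RNA-binding protein of spermatids, ranked 9.60 in MEFs and 86.3, 87.7 and 88.0 in ESCs, with medians of 46.3 and 72.1 in the Nanog and NanogN70 paths. Aldoc, with a difference of 76.7 points, encodes an aldolase of glycolysis, and Atp8b3 (82.8 points) a phospholipid flippase.

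The promoters with the largest fall in ESCs were those of Mxra8, Tef, Lgals1, Tpm1, Layn, Col16a1, Agpat4 and Ptchd4, by 79.4 to 90.9 points. Lgals1 encodes galectin-1, Tpm1 a tropomyosin, Col16a1 a collagen, Layn a hyaluronan receptor, Tef a transcription factor of the PAR bZIP family and Agpat4 an acyltransferase of phospholipid synthesis. The Lgals1 promoter (chr15:78925589-78927169) ranked 94.6 in MEFs and 6.80, 2.61 and 8.08 in ESCs, a difference of -88.8 points (SE 7.51, limma adjusted p = 0.000342). It stayed at 27.7 to 86.9 in the Nanog path and 32.5 to 89.9 in the NanogN70 path, above every ESC library. The Tpm1 promoter (chr9:67048610-67049923) ranked 87.2 in MEFs and 0.545 to 1.77 in ESCs, with medians of 22.5 and 12.6 in the paths. The Col16a1 promoter (chr4:130047232-130048183) ranked 83.0 in MEFs and 0.331 to 1.75 in ESCs, with path medians of 48.6 and 26.5.

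Distal members with the largest differences were introns of H2afv (87.7 points higher in ESCs) and Scarb1 (85.2) and a region 17188 bp from Mnt (84.8). In the other direction stood the regions near Gm13296 (-98.4) and in introns of Ahnak (-96.5) and Atoh8 (-91.9). Adjusted p-values of all 22 members named from this comparison were 0.000329 to 0.00119 by limma.

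The marker genes with members were placed by the same fit. All 4 fibroblast genes were lower in ESCs. Col1a2, a collagen I chain, ranked 81.7 in MEFs and 5.33, 5.94 and 1.77 in ESCs (-77.4 points, limma adjusted p = 0.000342). Twist1, a mesenchymal transcription factor, fell from 57.4 to 2.70, 4.70 and 4.39 (-53.5 points, limma adjusted p = 0.00053). Col1a1 fell by 46.2 points (limma adjusted p = 0.00768) and Fbn1, which encodes fibrillin-1, by 31.9 points (limma adjusted p = 0.0057). The Sox2 promoter (chr3:34648713-34650162) ranked 22.7 in MEFs and 60.2, 64.4 and 50.8 in ESCs (35.7 points, SE 10.7, limma adjusted p = 0.0452). Klf4 ranked 51.5 in MEFs and 58.4, 47.3 and 50.8 in ESCs, within the spread of the ESC libraries (0.64 points, limma adjusted p = 0.973).

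The calls in the gene classes are read against the 11.4% higher and 11.6% lower of all members. Of 78 members at cytosolic ribosomal protein genes 7 were called higher and 2 lower in ESCs (median difference 3.21 points), and of 35 at complex I genes 3 and 2 (8.48 points), so neither class had more calls than that background. The median over all members was 0.25 points. The strongest ribosomal protein promoter, that of Rpl27 (chr11:101441729-101442733), had pileups of 40 to 180 and a median rank of 96.1, and it was 6.4 points higher in ESCs (limma adjusted p = 0.0222). The Eif5a promoter (chr11:69920432-69922134), of a translation factor, had a median rank of 99.5 and passed neither this test nor that between the paths. Histone genes had a median of -18.8 points over 34 members, of which 7 were called lower and 1 higher. Of 23 members at BAF genes 1 was called higher and 5 lower, and of 264 at zinc finger genes 15 higher and 30 lower, the latter a share near that of all members. Among 12 Hox members 1 was called in each direction. Hoxc6, the strongest by median rank (55.5), fell by 41.4 points to a mean of 3.8 in ESCs (limma adjusted p = 0.00133).

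The lists differed in the letters they held, which the lists did not use. Of the 569 distal members of the MEF-higher list 19.3% held AP-1 letters (95% exact interval 16.2 to 22.8), against 4.54% of the 463 ESC-higher ones (2.83 to 6.85) and 6.48% of the 2962 in neither list (5.62 to 7.43). TEAD letters followed the same order, at 4.57% (3.01 to 6.62), 1.51% (0.610 to 3.09) and 1.92%. OCT letters were in 3.02% of the distal ESC-higher members (1.66 to 5.02) and 1.23% of the MEF-higher ones (0.496 to 2.52), and SOX letters in 3.24% (1.82 to 5.29) and 1.23% (0.496 to 2.52). The intervals of TEAD, OCT and SOX overlap between these lists. CTCF was present in 14.5% of the distal ESC-higher members, 9.67% of the MEF-higher ones and 16.04% of the others.

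At promoters, AP-1 letters were in 7.12% of the 857 MEF-higher members, 1.47% of the 814 ESC-higher ones and 2.22% of the 8548 others. Letters of several general promoter factors were the other way round, but not those of NF-Y. SP letters were in 27.3% of ESC-higher and 15.99% of MEF-higher promoter members, ZBTB33 in 3.44% and 0.58%, and YY1 in 3.19% and 0.12%. NF-Y letters were in 8.23% and 9.33%, below the 11.3% of promoter members in neither list. At least 1 of the 8 promoter motifs was present in 52.9%, 38.5% and 50.5% of ESC-higher, MEF-higher and other promoter members. Median GC contents of these 3 sets were 66.7%, 65.2% and 65.7%.

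To ask whether the shared regions moved differently with NanogN70, the mean rank of each list was compared between the paths on each day. The lists came from MEF and ESC libraries, and the comparison used the other 16. Each day has 1 library per path, so the exact permutation test flips the sign of the 8 daily differences, and its smallest p is 0.00781. With 1 library analysed here per day and path, differences between these cultures cannot be told apart from differences between the factors. Because the rule kept regions with a peak in every library, regions that closed in either path are not among the members.

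The ESC-higher members ranked higher with NanogN70 on each of the 8 days. Their mean rank was 34.3, 38.1, 38.9, 40.7, 40.7, 40.7, 40.2 and 42.8 in the Nanog path from day 0 to day 12. In the NanogN70 path it was 35.6, 39.98, 43.4, 44.4, 45.8, 46.2, 45.9 and 46.6. MEFs stood at 28.7 and the 3 ESC libraries at 68.2 to 68.3, values that the choice of the list set apart, so the place of the paths relative to them is not a result. The mean difference was 3.905 points (SD 1.62 over 8 days, exact permutation p = 0.00781, adjusted over 3 tests 0.0117). On a log2 pileup scale, relative to the median member of each library, the difference was 0.081 and did not pass the test (exact permutation p = 0.109), so this call depends on the rank scale.

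The MEF-higher members ranked lower with NanogN70 on each of the 8 days. Their mean rank was 53.6, 49.2, 47.0, 44.5, 43.3, 43.3, 42.5 and 36.9 in the Nanog path and 52.0, 47.3, 36.4, 40.3, 38.2, 36.8, 34.4 and 33.4 in the NanogN70 path. MEFs stood at 61.9 and ESCs at 19.76 to 19.99, again by the choice of the list. The mean difference was -5.19 points (SD 3.09 over 8 days, exact permutation p = 0.00781, adjusted 0.0117), with the largest on day 3 (-10.6) and the smallest of -1.53. Without day 3 the differences of the 2 lists were 3.83 and -4.42 points, in the same direction on all 7 days (adjusted exact permutation p = 0.0234 for each). Without day 5 they were 3.93 and -5.32 points.

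Both differences were present at promoters and away from them, in splits added after the data were seen. They were 3.71 and -4.61 points in promoter members and 4.25 and -6.10 in distal members. Member by member, 899 of the 1277 ESC-higher members (70.4%) had a higher mean rank with NanogN70, compared with 390 of the 1428 MEF-higher ones (27.3%) and 5999 of the 11512 others (52.1%). The weight of GC content differed between libraries. The mean rank of members in the top quartile of GC content minus that of members in the bottom quartile was 6.31 (day 5) to 19.7 (day 12) points in the Nanog path and 8.10 (day 0) to 24.7 (day 12) in the NanogN70 path, against 8.12 in MEFs and 10.4 to 11.05 in ESCs. Among members between the GC quartiles the differences between the paths were 3.83 and -5.30 points.

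**Figure D4:**
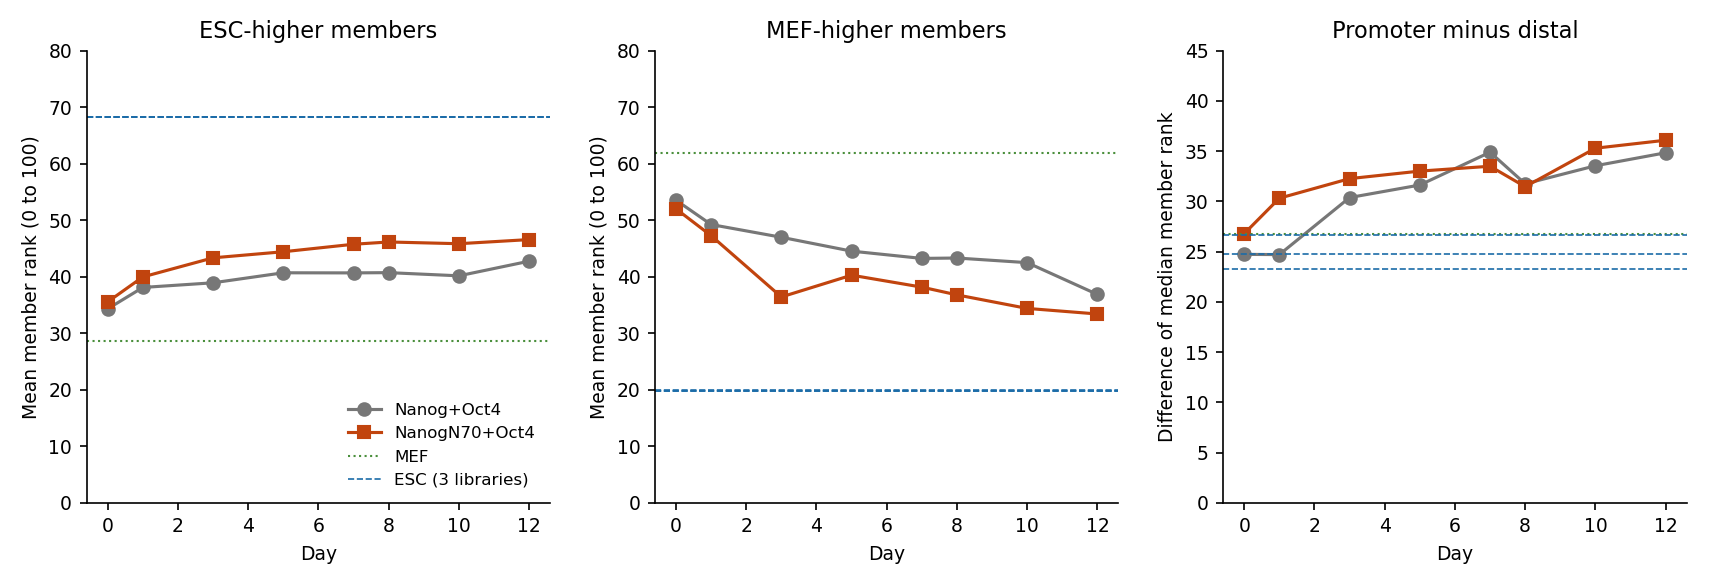
Mean member rank (0 to 100) of ESC-higher and MEF-higher members, and promoter minus distal median rank, against the day of each path, with 1 point per library and horizontal lines for the MEF library and the 3 ESC libraries. ESC-higher members rank higher and MEF-higher members lower with NanogN70 on all 8 days, while the MEF and ESC lines of the first 2 panels were set apart by the choice of the lists.

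The step between promoter and distal members did not pass the test between the paths. The median rank of promoter members exceeded that of distal members by 24.7 points at day 0 and 34.8 at day 12 in the Nanog path and by 26.8 and 36.1 in the NanogN70 path, compared with 26.8 in MEFs and 23.3 to 26.6 in ESCs. NanogN70 had the wider step on 6 of 8 days, by 1.53 points on average (SD 2.04, exact permutation p = 0.0625, adjusted 0.0625).

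Single members rarely passed the test between the paths. With day as a factor, limma called 51 of 14217 members (0.359%) as higher and 91 (0.64%) as lower with NanogN70, while 2534 had an unadjusted p under 0.05. The calls rest on the full set of days. Without day 10 there were 0 calls in limma (2034 with an unadjusted p under 0.05), without day 5 there were 1 higher and 9 lower, and without day 7 or day 8 there were 1 higher and 3 lower. Without day 0 there were 15 and 53, without day 1 19 and 49, without day 12 37 and 57, and without day 3 64 and 88. Without day as a factor limma called 0 (1664 with an unadjusted p under 0.05). Of the 51 higher members, 19 (37.3%) were in the ESC-higher list and 3 (5.88%) in the MEF-higher list, which hold 8.98% and 10% of all members. Of the 91 lower members, 46 (50.5%) were in the MEF-higher list and 2 (2.20%) in the ESC-higher list.

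The 5 members with the largest rise with NanogN70 were in introns of Lmx1b and Nacad, at the start of Ndrg2, within Msi1 and near Gm42488. The Ndrg2 promoter (chr14:51912621-51913973), of a gene linked to growth arrest, ranked 0.471 to 35.7 (median 12.4) with Nanog. With NanogN70 it ranked 24.7 to 90.02 (median 43.5), and it was higher on 8 of 8 days. The rank of 90.02 was on day 3, the library with peaks at lymphocyte genes, and the next highest was 67.4 on day 5. MEFs ranked 26.6 and ESCs 26.2, 40.1 and 38.7 there, so it stood in neither list. The difference was 33.1 points (SE 5.62, limma adjusted p = 0.0209). The region in Lmx1b (chr2:33615786-33616947), a LIM homeodomain gene, had medians of 3.40 and 47.0 in the Nanog and NanogN70 paths and 16.9 to 30.2 in ESCs, a difference of 38.8 points on 8 of 8 days (limma adjusted p = 0.0233). At Nacad (chr11:6602838-6604636) the medians were 24.1 and 67.9, above the 16.9 of MEFs and the 1.75 to 5.94 of ESCs.

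The 5 members with the largest fall were a region 28331 bp from Wnt7b, introns of Prkag2 and Hivep3 and the starts of Cebpd and Tvp23bos. The Cebpd promoter (chr16:15886460-15888304), of a transcription factor of the C/EBP family, ranked 35.9 to 75.6 (median 65.4) with Nanog and 16.3 to 63.5 (median 20.2) with NanogN70. MEFs ranked 77.8 and ESCs 12.4, 19.8 and 16.9 there. It was lower with NanogN70 on 8 of 8 days, by 34.6 points on average (SE 6.25, limma adjusted p = 0.023). The region near Wnt7b (chr15:85610467-85611321) ranked 45.7 to 92.0 with Nanog and 14.0 to 55.0 with NanogN70, a difference of -38.7 points (SE 6.22, limma adjusted p = 0.0187). The CTCF consensus was present in 3 of these 5 regions, those of Wnt7b, Prkag2 and Tvp23bos. AP-1 letters and SP letters were in 1 each. Over all members the CTCF consensus was in 14.9% of distal and 1.57% of promoter ones. The 5 were chosen by their values, and a link of motifs to the paths was not tested.

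Of the markers and wide-range members described above, Twist1 and the region near Snap47 also passed the test between the paths. Twist1 (chr12:33956685-33958863) ranked 27.5 to 57.7 (median 39.5) with Nanog and 1.87 to 32.7 (median 7.94) with NanogN70, lower on 8 of 8 days (-27.3 points, SE 5.63, limma adjusted p = 0.0332). Its NanogN70 median lay near the ESC ranks of 2.70 to 4.70. The Snap47 region had medians of 59.8 and 5.24 (-33.3 points, limma adjusted p = 0.0274). For the other markers the difference between the paths did not pass. Col1a2 had medians of 25.8 and 8.03 (limma adjusted p = 0.198), Sox2 of 10.5 and 14.4 (limma adjusted p = 0.385) and Klf4 of 44.9 and 55.7 (limma adjusted p = 0.207).

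**Figure D5:**
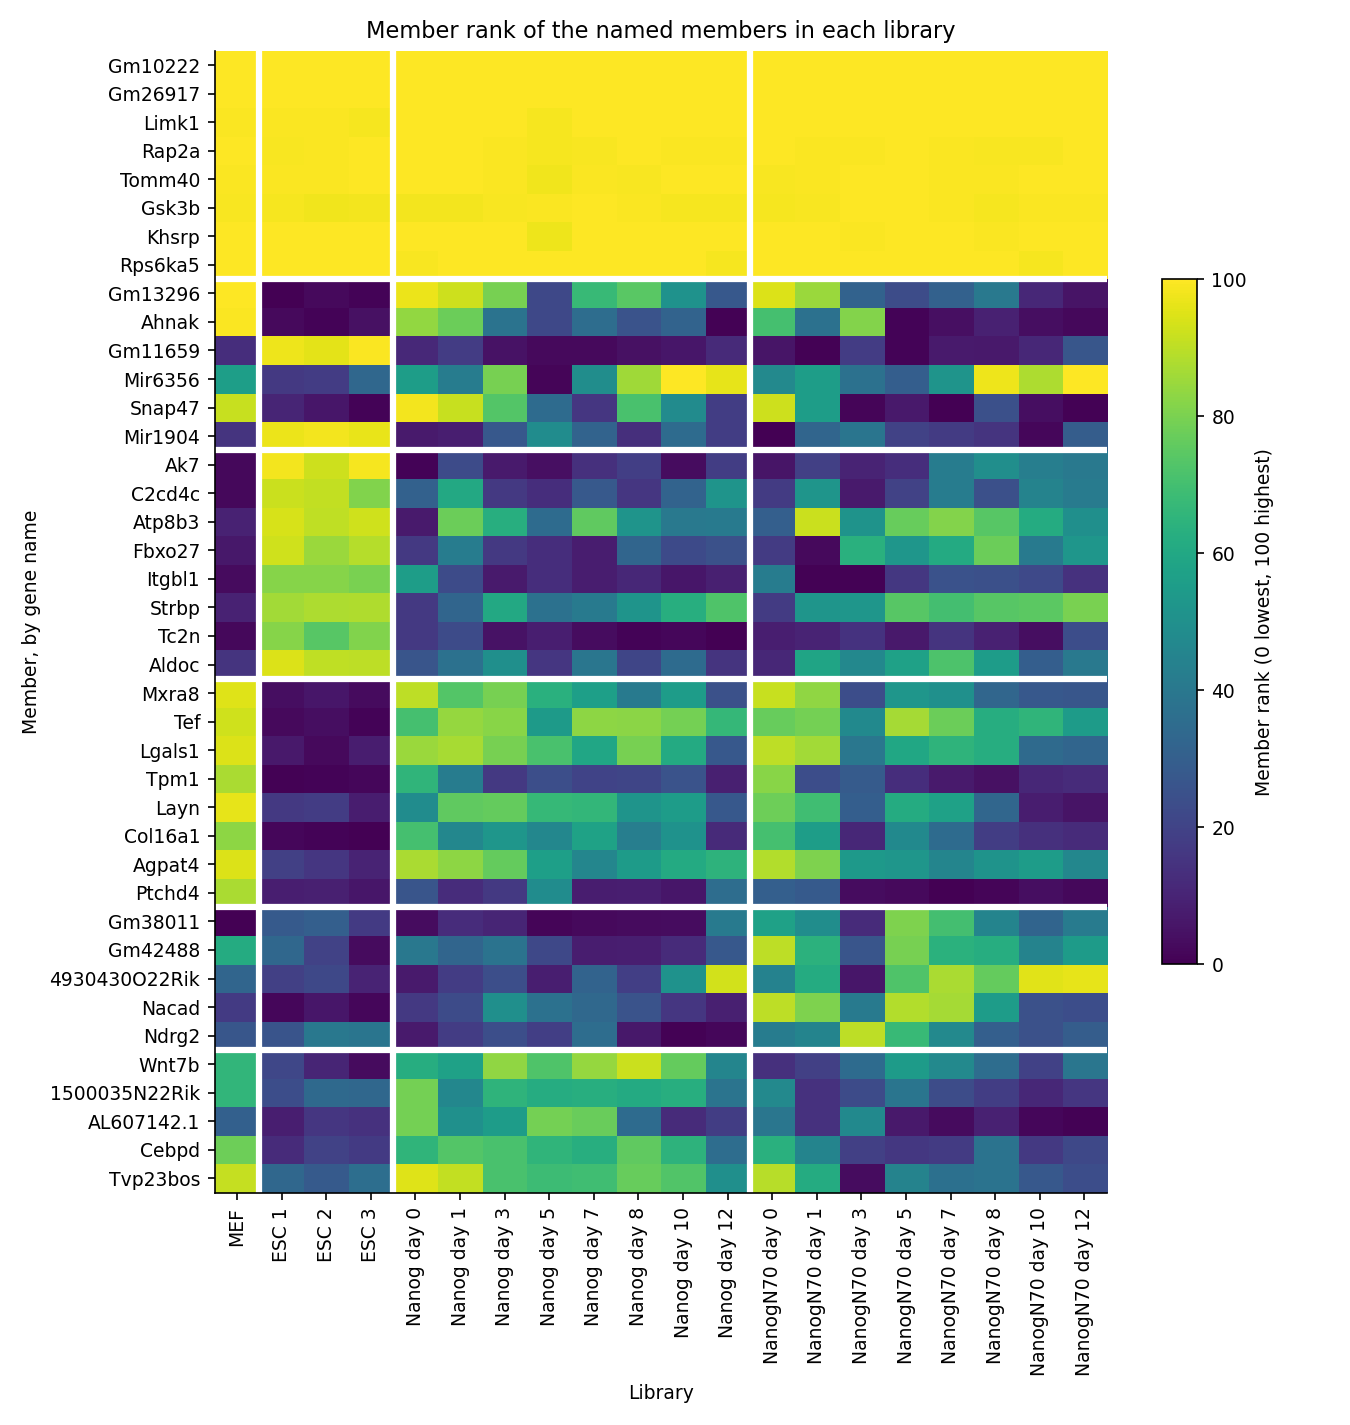
Member rank (colour, 0 lowest to 100 highest) of named members in each of the 20 libraries (columns), in blocks from top to bottom for the promoters strong in every library, the largest ranges, higher and lower in ESCs, and higher and lower with NanogN70. Ak7 is at 92.3 or above in ESCs and at most 49.3 elsewhere, and Gm11659 is the region in the Mapt intron.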

How the data were processed

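ATAC-seq peaks and summits of 20 libraries were used as deposited. Per the labels and the methods of the study, the authors trimmed reads with Trim Galore 0.6.4 and aligned them to mm10 with Bowtie2 2.4.5. They removed reads described as repetitive, poorly mapped or mitochondrial with SAMtools 1.16.1. Peaks were called in each library with MACS 1.4.2. The deposited score of a peak is MACS's -10 log10 p, with 50 as the lowest. The deposited signal of a summit is the coverage by tags there, a whole number not scaled to depth. No source used here states the number of reads.

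The centre of a merged region is the median of the top summits of its libraries, and gene starts were those of GENCODE M21. Member ranks were compared with limma 3.58.1 (R 4.3.3, mean-variance trend), checked on simulated data, and list means with two-sided exact permutation tests in Python 3.11.15. The day pairs the libraries by the labels and was a factor in the fit between the paths. Mitochondrial matches were sought with blastn 2.17.0+. Members, gene classes, motifs and lists were chosen with earlier results of these data known. Named regions followed a rule: the 8 promoter and 8 distal members strongest in their weakest library, the 6 with the largest range of rank, the 8 promoter and 3 distal members with the largest called difference between ESCs and MEFs in each direction, the 5 in each direction between the paths, the strongest in each gene class and every marker gene. The region of Nt5c3 and the stretches of the widest-ranging members were added after values were seen. Alternatives covered thresholds, overlap, windows, scale, low pileups and left-out libraries.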

Additional observations from a re-analysis of the deposited data

Results flagged for a closer look

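Outside chromosomes 1 to 19, X and Y, 4 shared regions lay on unplaced or unlocalised sequences of mm10, which the comparisons of place, motif and gene class did not use. They drew attention as signal in data outside the main measurement. The region on JH584304 had pileups of 95 to 543 and stood at the 99.4th percentile or above of every library. The regions on GL456216, GL456359 and GL456233 had pileups of 20 to 141, 8 to 73 and 14 to 44. Which genes or repeats these sequences hold was not tested.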

How the results depend on the processing

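The number of shared regions was 10352 with peaks scoring at least 100, 14205 with merging at 50 bp, 13380 with a base covered in every library and 14213 on the main chromosomes. The promoter share was 68.2% within 1 kb, 66.9% with protein-coding genes, 73.0% for whole regions, 80.2% with all transcript starts and 81.7% at the stricter score. The median width was 518 bp for the top peak of each library, 1181 bp at the stricter score and 1101 bp with merging at 50 bp. CTCF in distal members was 11.6% within 50 bases of the centre and 17.1% over whole regions.

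Between ESCs and MEFs, a median pileup of at least 20 left 9662 members with 865 higher and 865 lower, and fewer were tested. Normalised log2 pileups gave 2205 higher and 1957 lower. Without each ESC replicate there were 1151 to 1610 higher and 1187 to 1615 lower. The 22 named differences stayed called with the same sign in all 99 alternative fits that held them. Between the paths, normalised log2 pileups gave 130 higher and 233 lower, the filter on low pileup 21 and 46, and the fit with no day block 0 and 0 (limma, 1664 with an unadjusted p under 0.05). Leaving out each day gave 0 to 64 higher and 0 to 88 lower, with 0 of each without day 10. The 10 named calls were all lost without day 10 and with no day block, 8 were lost without day 5 and 8 without day 7, 9 without day 8, 4 without day 0 and 3 without day 1. None was lost without day 3 or day 12. The cause was not tested.

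The higher rank of ESC-higher members with NanogN70 was 3.65 to 4.29 points without each day and 0.081 on the log2 scale, where it no longer passed (exact permutation p = 0.109). The MEF-higher difference was -5.71 to -4.42 without each day and passed throughout. The promoter-distal step was 0.9496 to 1.95 without each day, passed without day 7 (1.95) and was -0.11 in members between the GC quartiles, an alternative chosen after seeing the data. Depth limits which weak regions enter the rule, as a site can be open yet lie below the peak threshold of a shallow library.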
